A study of Drosophila melanogaster with 399 samples.

Results

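The genes described here encode proteins of the mitochondrial ribosome of the fruit fly Drosophila melanogaster. They were taken as all gene symbols that begin with mRpL or mRpS in the deposited count tables. This gave 73 of 17612 symbols, 47 named for the large subunit (mRpL) and 26 for the small subunit (mRpS). Large and small subunit mean the letter of the symbol throughout. The place of each protein in the ribosome was not checked, and a symbol may not match it. The data were poly(A) RNA-seq of whole embryos in 399 libraries, 271 from RNAi embryos and 128 from control embryos. In the RNAi groups, 1 of 45 transcription factors was targeted by a single short hairpin RNA (a UAS TRiP line in the Valium20 vector). For its RNAi crosses in general, the paper describes the ubiquitous da-Gal4 driver, which the mothers carried on both the second and the third chromosome. The driver of the twi RNAi cross was not looked up separately. Control embryos came from the da-Gal4 driver crossed to a hairpin against mCherry, a gene that flies lack. The exceptions were the control of E5, labelled da-Gal4, and the control of twi, labelled MTD-Gal4, a driver of the female germline. Embryos were collected at 0-1.5 h after egg laying, at 1 or 2 middle windows and at 16-18 h, so that each RNAi group could be set against one of 21 sets of controls at the same window. Every factor was hit by 1 hairpin and every library was made from pooled embryos, and 3 RNAi groups had 1 library only.

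Mitochondrial ribosomes translate the few proteins that the mitochondrial genome encodes, all of them subunits of the oxidative phosphorylation complexes. The ribosomal RNAs come from mitochondrial DNA, but the ribosomal proteins are made in the cytoplasm from nuclear genes and imported. A fly egg is loaded by its mother with mitochondria and with messenger RNA for these proteins, and the embryo later replaces the maternal RNA with its own. In these whole-embryo libraries, fewer cells of a type and less RNA per cell cannot be told apart.

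Libraries held 13148430 to 167412388 counts on genes (median 54799768), of which 34749 to 466348 (median 150873) fell on the 73 genes, a share of 0.12 to 0.631% (median 0.279%). A pair of RNAi libraries stood apart. In dmrt99B RNAi at 16-18 h replicate 1, the 10 most abundant genes took 53.6% of counts and mitochondrial genes 49.9%, and in CG33557 RNAi at 16-18 h replicate 2 these shares were 39.0% and 38.3%. The targeted factor could be tested in 127 comparisons; its estimate was below 0 in 110, and it was called lower in 33 and higher in 0.

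Of the 73 genes, 72 had counts in every library. The exception was mRpL53 (FBgn0050481, 2R:13954195-13955664, plus strand, dm6), whose exons lie wholly within exons of CG33155 on the same strand; reads over several genes were left out of the counts, and mRpL53 had 0 counts in all 399 libraries, so it is not described further. The other 72 genes passed the filter on low counts. Their mean level in control libraries, given per kilobase of exon as RPKM, ran from 20.4 to 113, with a median of 42.7 RPKM for the large subunit and 47.1 RPKM for the small subunit. The highest mean level was that of mRpL12 (113 ± 42.6 RPKM, SD over the 64 control groups), which encodes a protein of the flexible stalk that binds translation factors. It was followed by mRpS7 (86.1 ± 31.7 RPKM), mRpS30 (72.0 ± 11.4 RPKM), mRpL30 (71.0 ± 17.8 RPKM) and mRpS10 (66.8 ± 22.9 RPKM), and mRpS30, mRpL30 and mRpS10 lie within 1 SD of each other. At the low end stood mRpL21 (20.4 ± 7.38 RPKM), mRpL41 (27.7 ± 5.54 RPKM), mRpS31 (27.9 ± 5.68 RPKM), mRpL43 (28.6 ± 8.87 RPKM) and mRpL27 (28.8 ± 5.16 RPKM). The genes lie on all major arms, 21 on 3R, 17 on 3L, 12 on 2L, 12 on 2R and 11 on X.

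The first question was how the genes behave while a control embryo develops. Summed over the 73 genes, the level was 3333 ± 298 CPM (counts scaled to a library's total; mean ± SD over 21 control sets) at 0-1.5 h, 2978 ± 326 CPM at 2-4 h (2 sets), 2550 ± 259 CPM at 6-8 h (4 sets), 2788 CPM at 8-10 h (1 set), 2927 ± 557 CPM at 10-12 h (7 sets), 2846 ± 309 CPM at 12-14 h (5 sets), 2626 ± 307 CPM at 14-16 h (3 sets) and 2579 ± 341 CPM at 16-18 h (21 sets). Within a control set, the log2 of the sum at 6-8 h lay 0.42 ± 0.05 (SD) below that at 0-1.5 h, lower in 4 of 4 sets, and at 16-18 h the log2 difference was -0.38 ± 0.18, lower in 20 of 21 sets. These sums are relative to library totals, and the direction at 16-18 h turned with the processing. The median log2 fold change of the members at 16-18 h against 0-1.5 h was 0.12 with TMM (the trimmed mean of M-values) and 0.63 with RLE size factors. With TMM it was -0.03 with no filter on low counts, -0.21 without replicate 2 and -0.23 without the da-Gal4 and MTD-Gal4 sets, so no direction is read for the family at that window.

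**Figure D1:**
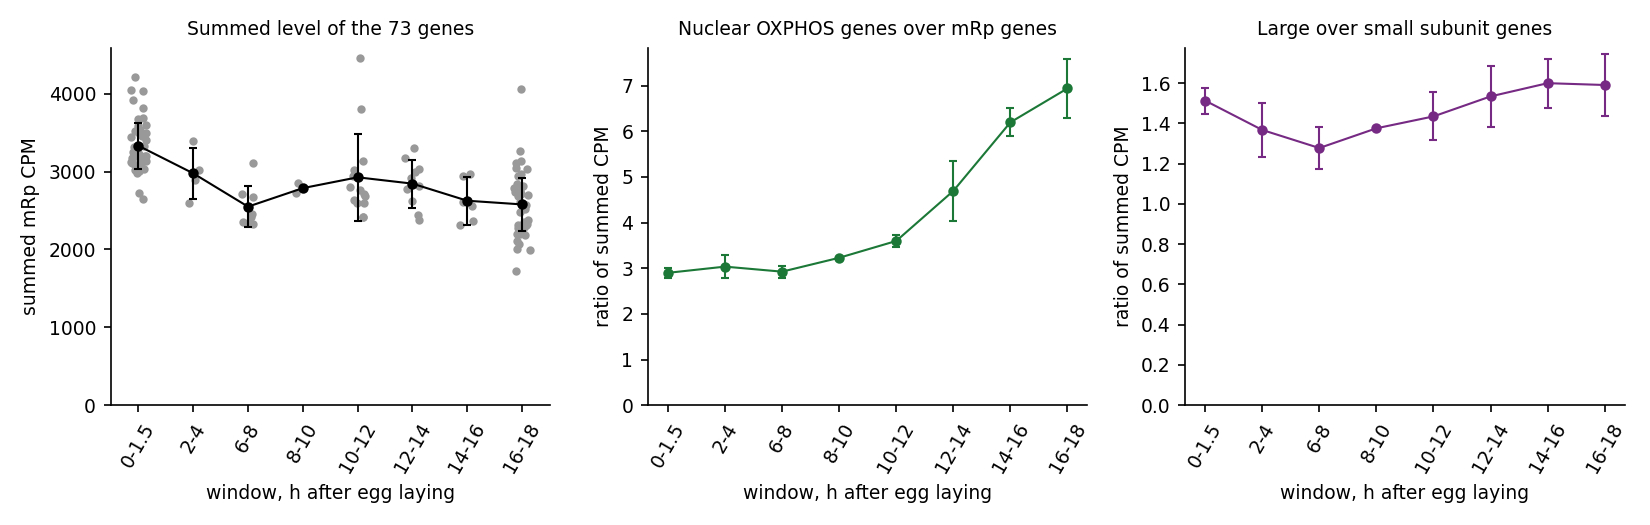
Control embryos by window (h after egg laying). Left, summed CPM of the 73 genes in each library (grey) with the mean and SD over control sets (black); middle, summed CPM of nuclear oxidative phosphorylation genes over that of the 73 genes; right, large over small subunit genes. The middle ratio is 2.90 at 0-1.5 h and 6.94 at 16-18 h, while the summed level lies between 2550 and 3333 CPM.

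Ratios between gene groups do not depend on how libraries are scaled. Nuclear genes of oxidative phosphorylation (subunits of complexes I, III, IV and V, with complex II not in the list) had 2.90 ± 0.10 times the summed CPM of the mitochondrial ribosomal protein genes at 0-1.5 h. The ratio was 2.93 ± 0.13 at 6-8 h, 3.60 ± 0.12 at 10-12 h, 4.69 ± 0.66 at 12-14 h, 6.20 ± 0.31 at 14-16 h and 6.94 ± 0.65 at 16-18 h. Both groups serve the same complexes, one as subunits and the other by translating subunits, and their ratio was flat up to 6-8 h and higher at each later window. Cytoplasmic ribosomal protein genes had 28 ± 1.7 times the summed CPM of the mitochondrial ones at 0-1.5 h, 62.4 ± 3.2 at 6-8 h and 57.7 ± 3.0 at 16-18 h. The ratio of large to small subunit genes was 1.51 ± 0.06 at 0-1.5 h, 1.28 ± 0.10 at 6-8 h and 1.59 ± 0.16 at 16-18 h. Other genes of mitochondrial gene expression had lower sums late: tRNA synthetases had 740 ± 35.5 CPM at 0-1.5 h and 369 ± 74.5 CPM at 16-18 h, and DNA and RNA factors had 767 ± 48.6 CPM and 357 ± 42.8 CPM at those windows. A pair of mitochondrial ribosomal protein genes named outside the family's scheme were followed as well: bonsai had 75.3 ± 8.92 CPM at 0-1.5 h and 49.3 ± 9.40 CPM at 16-18 h, and tko, the gene of the bang-sensitive mutant technical knockout, had 29.7 ± 8.44 CPM and 27.9 ± 10.1 CPM.

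Individual genes moved in both directions. Calls between windows needed a Benjamini-Hochberg adjusted p (edgeR quasi-likelihood test, over all genes) no higher than 0.1 and a log2 fold change of 0.5 or more in either direction. At 16-18 h against 0-1.5 h, 8 of 72 genes were called higher and 12 lower, beside 52.2% of all genes called higher and 32.8% lower. At 6-8 h, 4 were higher and 18 lower (all genes 52.0% and 20.8%), and at 2-4 h 16 were higher and 8 lower (37.4% and 16.9%). The balance at 2-4 h, where 1 of the 2 sets is the MTD-Gal4 control, turned round with 0 higher and 28 lower without replicate 2, 1 and 16 without the da-Gal4 and MTD-Gal4 sets, 2 and 23 with library totals and 6 and 15 with no filter, against 32 and 7 without replicate 1. Between 2-4 h and 6-8 h, 2 genes were higher and 27 lower at 6-8 h (29.1% and 18.7%), so that 37.5% of the members were lower at that step. The number lower was 14 with library totals and 8 with the family's summed counts as library size. No control set was sampled at both windows, so this step compares different sets, linked through their 0-1.5 h and 16-18 h windows. The same holds for every later step between neighbouring windows except 16-18 h against 14-16 h. At 8-10 h 2 were higher and 19 lower (46.6% and 23.2%), at 10-12 h 9 and 5 (53.5% and 26.6%), at 12-14 h 9 and 6 (52.1% and 30.6%), and at 14-16 h 9 and 12 (50.3% and 33.4%). Later steps between neighbouring windows moved few members: 6 were higher and 0 lower at 10-12 h against 8-10 h (3.7% and 1.32% of all genes), and 0 passed in either direction at 8-10 h against 6-8 h (5.53% and 4.85%), at 12-14 h against 10-12 h (19.9% and 16.3%), at 14-16 h against 12-14 h (7.37% and 8.81%) and at 16-18 h against 14-16 h (10.8% and 7.7%). In those 4 steps edgeR gave 6, 9, 3 and 4 members at an unadjusted p under 0.05, and DESeq2 called 1 member at 8-10 h and 0 in the other 3. The 6 members higher at 10-12 h against 8-10 h rest on 1 control set with 2 libraries at 8-10 h. Their number was 0 with library totals, 0 with the family's summed counts as library size and 1 with no term for the control set. It was 2 with no filter, 8 with RLE size factors and 14 with DESeq2. These counts move with the scaling. At 16-18 h the median log2 fold change of the members was 0.12 and that of all tested genes 0.75 under TMM, the scaling used. With library totals 2 genes were higher and 26 lower (medians -0.25 and 0.39), and with RLE size factors 41 were higher and 0 lower (medians 0.63 and 1.24; DESeq2 also 41 and 0). The comparison with all genes also turned with the choice of genes: the members' median lay 0.63 log2 units below the median of all 13072 tested genes, but 0.42 above that of the 8009 genes with a mean control level of at least 10 CPM, so no direction relative to other genes is read for 16-18 h. At 6-8 h the members lay below all genes whichever floor was taken, by 0.99 with no floor and by 0.37 with a floor of 10 CPM.

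Because these directions depend on scaling, genes were also tested with the summed counts of the family as library size, which asks whether a gene moved against its family; at 16-18 h this gave 9 genes higher and 12 lower. mRpL2 had the largest increase. In 42 control libraries at 16-18 h it ran from 15.3 to 66.2 CPM (median 41.2 CPM), against 10.7 to 28.4 CPM at 0-1.5 h (median 16.7 CPM). Its log2 fold change was 1.64 ± 0.06 (SE, adjusted p = 1.51e-47) and 1.64 against the family. Most late libraries lay above all early ones, with some overlap. mRpL55 (log2 fold change 0.91 ± 0.05), mRpL43 (0.83 ± 0.06), mRpL28 (0.70 ± 0.04), mRpS25 (0.70 ± 0.06), mRpS16 (0.56 ± 0.05), mRpS22 (0.53 ± 0.04) and mRpL22 (0.53 ± 0.05) followed, and each was also higher against the family. Members called higher at 16-18 h numbered 2 with library totals, 2 without the da-Gal4 and MTD-Gal4 sets and 3 without replicate 2. Most of these increases therefore lost their call in those settings. mRpL55, mRpL43, mRpS25 and mRpS22 have no bacterial counterpart and belong to the part of the ribosome that mitochondria added.

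The largest decrease was that of mRpS18B, one of 3 fly proteins related to bacterial S18. It ran from 14.95 to 34.7 CPM at 16-18 h (median 20.2 CPM), against 42.5 to 71.6 CPM at 0-1.5 h (median 52.2 CPM), so that the ranges of 42 libraries each did not overlap. Its log2 fold change was -0.996 ± 0.043 (adjusted p = 2.59e-42). mRpS7, whose bacterial counterpart organizes the head of the small subunit, ran from 34.5 to 73.7 CPM at 16-18 h, against 87.3 to 144 CPM at 0-1.5 h, again without overlap, with a log2 fold change of -0.80 ± 0.04. mRpS23 (-0.81 ± 0.04), mRpS18A (-0.73 ± 0.05), mRpL39 (-0.73 ± 0.04), mRpL10 (-0.73 ± 0.04), mRpL11 (-0.70 ± 0.04) and mRpL1 (-0.66 ± 0.04) were the others of the 8 largest decreases. With RLE size factors these 8 stayed below 0 but none passed the threshold on the fold (mRpS18B -0.49, mRpL1 -0.16), and all 8 were lower against the family. By origin, 10 of the 42 genes with a bacterial counterpart were called lower and 4 higher, and of the 30 genes particular to mitochondria 2 were lower and 4 higher, beside 32.8% of all genes lower and 52.2% higher; the difference between these groups was not tested, and with RLE size factors 0 members were lower.

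**Figure D2:**
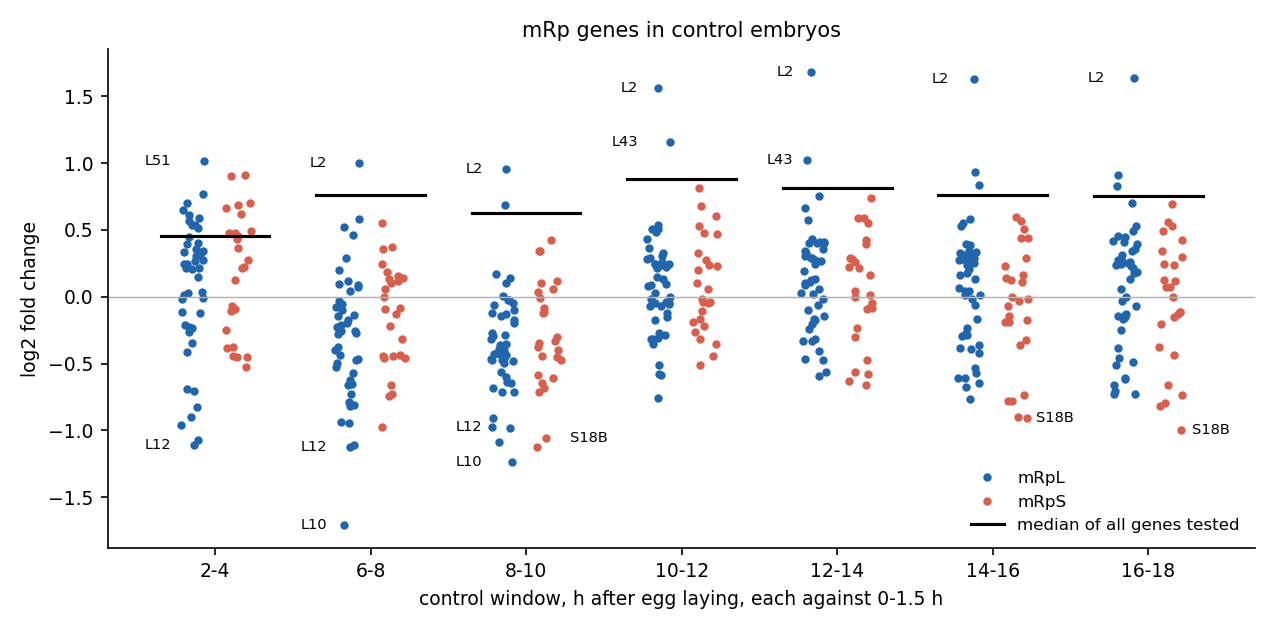
Log2 fold change of the 72 tested genes in control embryos at each window against 0-1.5 h, large subunit in blue, small subunit in red, with the median of all genes tested as a bar. mRpL2 is the highest point from 6-8 h on, at 0.96 to 1.68, and mRpL10 the lowest at 6-8 h, at -1.71.

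Several genes had their lowest level in between. mRpL10, whose product anchors the stalk, had 65.8 ± 6.75 CPM at 0-1.5 h, 31.4 ± 2.78 CPM at 2-4 h, 18.4 ± 1.96 CPM at 6-8 h, 31.6 CPM at 8-10 h, 37.4 ± 8.7 CPM at 10-12 h and 30.8 ± 4.2 CPM at 16-18 h; its log2 fold change at 6-8 h against 0-1.5 h was -1.71 ± 0.09 (adjusted p = 2.72e-32). mRpL12 was lowest at 2-4 h, with 46.0 ± 1.03 CPM, and had 119 ± 22.5 CPM at 0-1.5 h and 66.1 ± 15.1 CPM at 16-18 h. mRpL3 (-1.07 ± 0.14) and mRpL20 (-0.96 ± 0.15) were the next largest decreases at 2-4 h, and mRpL20 was back at 34.6 ± 6.6 CPM at 16-18 h, beside 35.6 ± 4.2 CPM at 0-1.5 h. The largest increases at 2-4 h were those of mRpL51 (1.02 ± 0.14), mRpS33 (0.91 ± 0.15) and mRpS9 (0.91 ± 0.11), and none of these stood out at 16-18 h. Their size depended on the libraries taken. The highest value of any member at 2-4 h was 0.48 without replicate 2, 0.54 without the da-Gal4 and MTD-Gal4 sets and 1.34 without replicate 1. At 6-8 h, mRpL43 (0.58 ± 0.11) and mRpS22 (0.55 ± 0.08) followed mRpL2, and mRpL21 (-1.11 ± 0.10) and mRpL12 (-1.12 ± 0.11) followed mRpL10.

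mRpS5 differed between control sets more than any other member at 0-1.5 h. The SD of its log2 level was 0.46 between the 21 sets and 0.18 between the replicates of a set, where the median member had 0.16 and 0.14. Over the 19 sets with the mCherry hairpin alone these SDs of mRpS5 were 0.41 and 0.16. Of those sets, the controls of sens, Sox14 and trh had a mean of 143 CPM (135 and 152 CPM) and the controls of CG33557 and dmrt99B 61.8 CPM (60.7 and 63.0 CPM), so that these libraries did not overlap. mRpS30 did not vary in this way at 0-1.5 h, with 153 ± 11.8 CPM over the same sets. At 16-18 h the SD of its log2 level was 0.30 between all 21 sets and 0.19 between the replicates of a set. Over the 64 control groups, the genes whose log2 level correlated most with that of the summed family were CG10470 (r = 0.91), bonsai (r = 0.90) and l(2)37Bb (r = 0.90), among 10009 genes; the groups share sets and windows, and this is a description.

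The second question was whether loss of a factor changes these genes. In 9864 tests, 1 for each member in each comparison of RNAi with matching control embryos (edgeR adjusted p up to 0.1, with no limit on the fold), members were called higher 150 times and lower 237 times. Over all genes 3.17% of tests were called higher and 2.73% lower. No member was called in 112 comparisons, and 313 of the calls fell in 10 comparisons. In 76 comparisons the median log2 fold change of the members lay within 0.1 of 0. Members were called in 4 of 45 comparisons at 0-1.5 h, 11 of 47 at middle windows and 10 of 45 at 16-18 h. Of the 4 at 0-1.5 h, CG15696 had a single RNAi library. ERR and foxo, regulators of nuclear genes of mitochondria in other settings, had 0 members called at 10-12 h with edgeR (3 and 0 members at an unadjusted p under 0.05) and 0 with DESeq2. With ERR RNAi, 66 of 72 genes lay below 0 (median log2 fold change -0.12, all genes -0.02, with 0.254% of all genes called higher and 2.11% lower), and ERR itself had 7.66 and 8.01 CPM in RNAi embryos, against 23.6 and 24.4 CPM in control embryos. With foxo RNAi the median was -0.03, and edgeR called 0 genes of the whole table (492 at an unadjusted p under 0.05, 150 called by DESeq2).

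**Figure D3:**
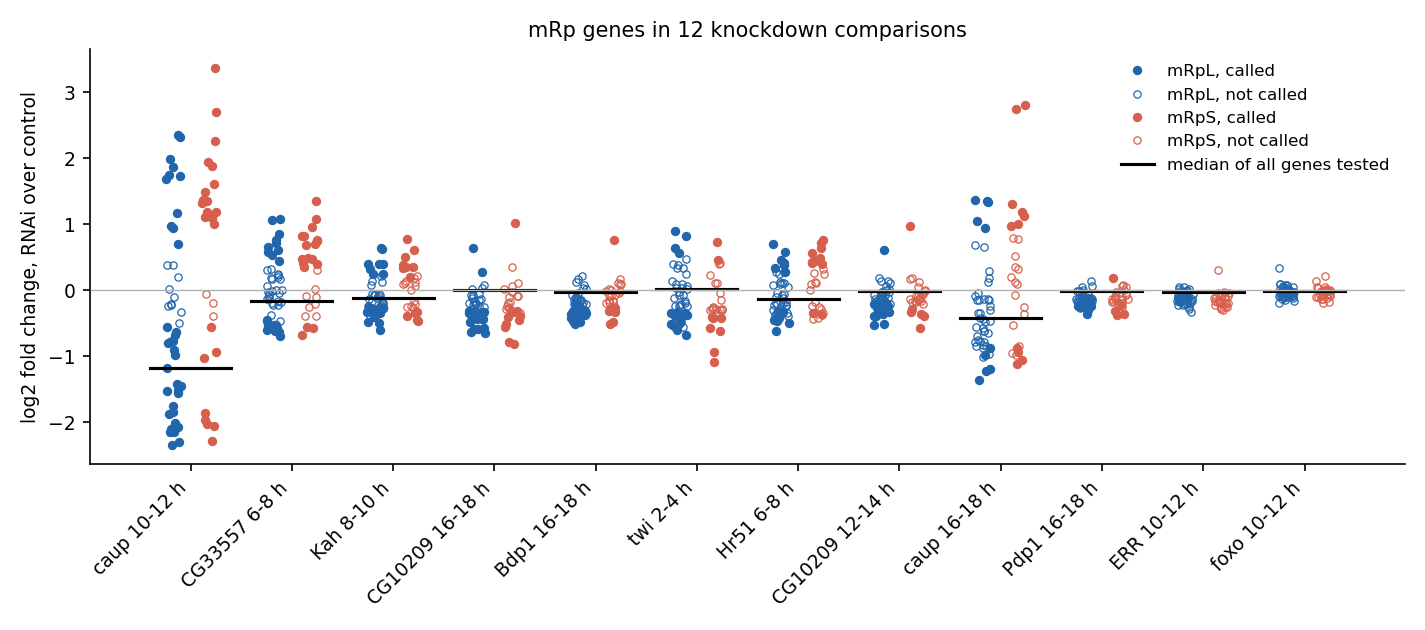
Log2 fold change (RNAi over control) of the 72 tested genes in the 10 comparisons with the most members called and in ERR and foxo at 10-12 h; filled points were called, and the bar is the median of all genes tested. In caup RNAi at 10-12 h the points run from -2.34 to 3.37, and in ERR and foxo no point is filled.

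The 21-base target sites of 4 of the hairpins are shown to identify knockdowns among the 5 with most members called; capitals mark the bases opposite guide bases 2 to 8.
caup: tacgattacgagtACGTTTAa
CG33557: ctgcacaaatacgAGAGCGAa
Kah: ccgattcgatctaCAGCTCTa
Bdp1: atggtgatgttgtCTACGAAa

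In embryos with RNAi of caup, a homeobox gene of the Iroquois complex, the family split. At 10-12 h caup had 0.771 and 0.216 CPM in RNAi embryos, against 40.2 and 36.8 CPM in control embryos. Of the 72 genes, 26 were called higher and 33 lower (36.1% and 45.8%), but 35.7% of all genes were called higher and 49.8% lower, so the counts alone are no result about these genes. They also turn with the scaling: RLE size factors gave 29 higher and 20 lower and library totals 4 higher and 62 lower, and leaving out control replicate 1 or 2 gave 33 or 37 called members in all; the median of all genes was -1.17 with TMM, -0.57 with RLE size factors and -3.25 with library totals. The ratio of summed large to small subunit CPM was 0.57 in both RNAi libraries, against 1.43 and 1.35 in control embryos. Such a ratio, here and below, weighs genes by their CPM. In control libraries mRpS30 (mean 150 CPM) and mRpS5 (86.6 CPM) were highest among genes with an mRpS symbol. Both were called higher in this comparison, and the ratio without them was not computed. Whether the ratio differs apart from these genes is therefore not shown. By subunit, 11 large subunit genes were higher and 25 lower (median log2 fold change -0.65), and 15 small subunit genes were higher and 8 lower (median 1.10). Summed plain CPM of the family was 1456 and 1500 in RNAi embryos and 2950 and 2763 in control embryos.

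CPM of single genes in the knockdown comparisons are TMM-scaled within a comparison. mRpS5 had 337 and 348 CPM in caup RNAi embryos at 10-12 h, against 30.6 and 35.8 CPM in control embryos (log2 fold change 3.37 ± 0.12). mRpS30 had 638 and 701 CPM in RNAi embryos, against 102 and 103 CPM in control embryos (2.704 ± 0.094). mRpL4 (2.35 ± 0.13) and mRpL39 (2.33 ± 0.13) were the next largest increases. mRpL2 went the other way, with 5.63 and 2.30 CPM in RNAi embryos, against 21.4 and 18.8 CPM in control embryos (-2.34 ± 0.51, adjusted p = 0.015). mRpL22 (-2.30 ± 0.58), mRpS35 (-2.27 ± 0.34) and mRpL3 (-2.14 ± 0.40) followed, and for these members the RNAi and control libraries did not overlap. At 16-18 h, 12 genes were higher and 9 lower (30.2% and 18.5% of all genes; 2 and 63 with library totals), the ratio of subunits was 0.75 and 0.48 in RNAi embryos and 1.58 and 1.60 in control embryos, and mRpS5 (2.81 ± 0.46), mRpS30 (2.74 ± 0.45), mRpL50 (1.37 ± 0.40) and mRpL4 (1.36 ± 0.36) were again on the high side, mRpL2 (-1.36 ± 0.42), mRpL38 (-1.22 ± 0.40), mRpL22 (-1.19 ± 0.40) and mRpS25 (-1.11 ± 0.46) on the low side. With library totals mRpL50 and mRpL4 lay below 0 at 16-18 h (-0.31 and -0.28). The 2 RNAi libraries differed from each other in mRpS5, with 123 and 255 CPM, and the number called at 16-18 h was 0 without either control library and 57 or 47 without RNAi replicate 1 or 2.

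A test of the difference between windows found 37 of 72 genes whose caup effect was lower at 10-12 h than at 16-18 h and 0 higher, beside 53.8% and 0.751% of all genes. These shares are near those of all genes, so the counts alone are no result about these genes. The median difference was -0.94 for the members and -1.61 for all genes. With RLE size factors the same test gave 0 lower and 1 higher over all factors. The other 46 such tests called 0 members with edgeR, with 100 member tests at an unadjusted p under 0.05.

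Markers of maternal egg RNA moved with the split. The 6 of them (bcd, nos, osk, gcl, pgc, CycB) summed to 11748 and 12625 CPM in caup RNAi embryos at 10-12 h, against 1053 and 1155 CPM in control embryos, with 6 of 6 called higher and none at 0 in any library. The 6 markers of late muscle were all called lower (median log2 fold change -2.7). Cytoplasmic ribosomal protein genes were called higher 74 times out of 86 (median 1.81) and lower 5 times. In control embryos the egg markers had median log2 fold changes of -3.76 at 6-8 h and -3.87 at 16-18 h against 0-1.5 h. Their part in the result was not tested.

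With RNAi of CG33557, Kah and Hr51 members were called in both directions as well, and again the counts alone are no result about these genes. CG33557 is a basic helix-loop-helix gene, Kah a Snail-family zinc finger gene and Hr51 a nuclear receptor gene. CG33557 itself had 0.0 and 0.019 CPM in RNAi embryos at 6-8 h, against 0.637 and 1.04 CPM in control embryos; Kah had 21.5 and 20.6 CPM, against 36.8 and 41.2 CPM; Hr51 was not called, with 0.845 and 0.264 CPM in RNAi embryos, against 1.35 and 1.79 CPM. Members called numbered 25 higher and 14 lower with CG33557 RNAi (28.1% and 16.9% of all genes), 16 and 22 with Kah RNAi at 8-10 h (24.4% and 23.5%), and 16 and 10 with Hr51 RNAi at 6-8 h (23.7% and 20%), shares near those of all genes. With library totals the counts were 6 and 39, 5 and 44, and 6 and 35 in the same order, and with RLE size factors 25 and 10, 18 and 6, and 20 and 3. The number called was 20 without control replicate 2 of CG33557, 9 or 10 without control replicate 1 or 2 of Kah, and 9 or 1 without RNAi replicate 1 or 2 and 51 or 16 without control replicate 1 or 2 of Hr51. The ratio of large to small subunit CPM was 0.98 and 1.08 in CG33557 RNAi embryos, against 1.30 and 1.44 in control embryos. It was 1.09 and 1.17 with Kah RNAi, against 1.40 and 1.35 in control embryos, and 1.09 and 1.02 with Hr51 RNAi, against 1.25 and 1.39 in control embryos. Within each of these 3 comparisons the 2 groups did not overlap. Over the control libraries of all sets at 6-8 h, however, the ratio ran from 1.06 to 1.44. Inside that range lay the CG33557 RNAi library at 1.08 and the Hr51 RNAi library at 1.09, and the other library of each pair lay below it. At 8-10 h the Kah set was the only control set.

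Counting caup at 10-12 h with these 3, 13 members were called higher in all 4 comparisons and 6 lower in all 4, which is 18.1% and 8.33% of the members, beside 21.3% and 7.4% of all genes. The 6 called lower were mRpL2, mRpL20, mRpL3, mRpL38, mRpL46 and mRpL47; these overlaps were counted after the values had been seen. mRpS30, among the 13, had 316 and 297 CPM with CG33557 RNAi, against 165 and 124 CPM in control embryos (log2 fold change 1.09 ± 0.19). It had 267 and 252 CPM with Kah RNAi, against 148 and 153 CPM in control embryos (0.79 ± 0.07), and 222 and 240 CPM with Hr51 RNAi, against 160 and 122 CPM in control embryos (0.71 ± 0.17). mRpL4 was called higher in all 3, at 1.08 ± 0.14, 0.64 ± 0.07 and 0.70 ± 0.14 in the order given. mRpS5 was higher with CG33557 RNAi (1.36 ± 0.20) and Hr51 RNAi (0.77 ± 0.17), and with Kah RNAi its libraries at 124 and 95.2 CPM overlapped the control libraries at 86.7 and 113 CPM. The largest decreases were those of mRpL20 (-0.69 ± 0.19), mRpS34 (-0.67 ± 0.17), mRpL37 (-0.64 ± 0.13) and mRpL43 (-0.61 ± 0.17) with CG33557 RNAi, of mRpL21 (-0.60 ± 0.11), mRpL20 (-0.49 ± 0.09), mRpL33 (-0.48 ± 0.11) and mRpS21 (-0.46 ± 0.11) with Kah RNAi, and of mRpL47 (-0.61 ± 0.16), mRpL46 (-0.49 ± 0.15), mRpL2 (-0.46 ± 0.13) and mRpL3 (-0.45 ± 0.15) with Hr51 RNAi. mRpL33 was on opposite sides, called lower with Kah RNAi and higher with CG33557 RNAi (0.62).

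**Figure D4:**
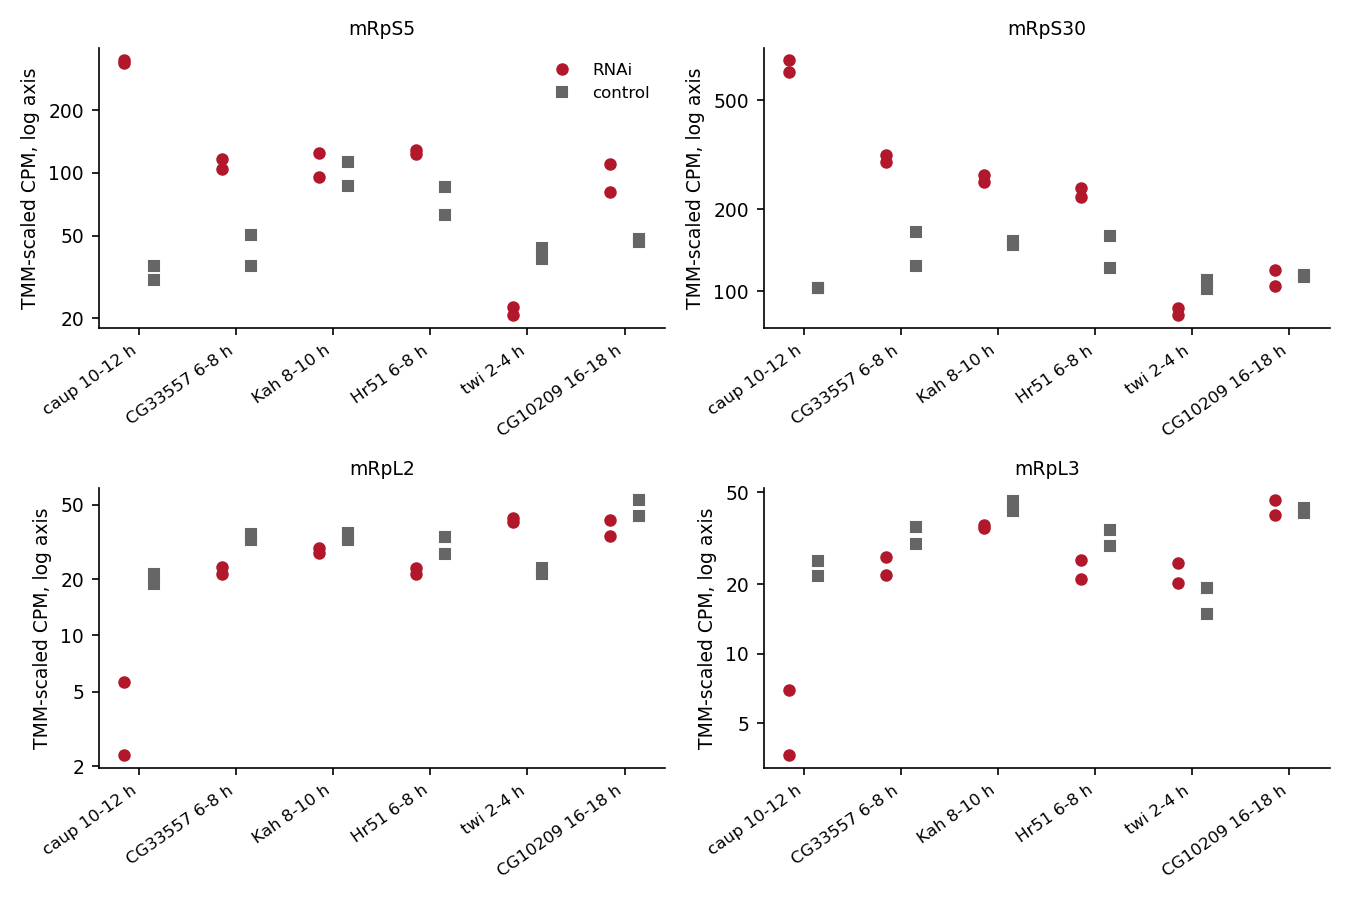
TMM-scaled CPM (log axis) of 4 genes in each RNAi (red circles) and control library (grey squares) of 6 comparisons. mRpS30 lies higher in RNAi than in control libraries with caup, CG33557, Kah and Hr51 RNAi, from 222 to 701 CPM in RNAi embryos and from 102 to 165 CPM in control embryos, and mRpL2 lies higher in RNAi libraries only with twi RNAi.

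These 4 comparisons had different control sets and share no library. Over the 72 members, the log2 fold changes of caup RNAi at 10-12 h correlated with those of CG33557 RNAi (Pearson r = 0.97), Hr51 RNAi (r = 0.94) and Kah RNAi (r = 0.83), with those of Bdp1 RNAi at 16-18 h less (r = 0.63), and with those of twi RNAi at 2-4 h in the opposite sense (r = -0.70). These pairs were looked at after the values had been seen, the genes are not independent, and r is given as a description. The egg markers again differed between groups: they summed to 5117 and 4971 CPM with CG33557 RNAi, against 2260 and 1475 CPM in control embryos, to 3664 and 3320 CPM with Kah RNAi, against 1274 and 1451 CPM in control embryos, and to 3504 and 3926 CPM with Hr51 RNAi, against 2457 and 1475 CPM in control embryos. Their part in the result was not tested. The split was also set beside 13 contrasts between windows of control sets other than the comparison's own (10 for Kah). For caup RNAi at 10-12 h, r over the members ran from -0.73 to 0.58 with a median of -0.41, for CG33557 RNAi from -0.76 to 0.59 and for Hr51 RNAi from -0.77 to 0.59, so the answer depends on the contrast taken. The most positive value came from 2-4 h against 0-1.5 h and the most negative from 8-10 h against 6-8 h. The contrast of 6-8 h with 2-4 h was tried first and gave -0.46 for caup RNAi, and the others were added after that value was seen.

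RNAi of twi, the gene of the mesoderm determinant Twist, gave the opposite signs for several of these genes. The twi controls are labelled as MTD-Gal4, with no mCherry hairpin named. The paper describes da-Gal4 for its RNAi crosses in general, and the driver of the twi RNAi cross was not looked up separately. The hairpin and any difference in cross or driver therefore cannot be told apart in any twi comparison. At 2-4 h twi had 74.4 and 90.3 CPM in RNAi embryos, against 177 and 173 CPM in control embryos. Among the members, 6 were higher and 22 lower, 8.33% and 30.6%, with 20.8% and 19.2% of all genes. mRpL2 had 42.1 and 40.5 CPM in RNAi embryos, against 21.3 and 22.9 CPM in control embryos (log2 fold change 0.90 ± 0.13), followed by mRpL38 (0.82 ± 0.18), mRpS35 (0.73 ± 0.18) and mRpL46 (0.65 ± 0.19). mRpS23 had 13.3 and 16.0 CPM in RNAi embryos, against 29.6 and 32.2 CPM in control embryos (-1.08 ± 0.16), followed by mRpS5 (-0.93 ± 0.14), mRpL24 (-0.67 ± 0.13) and mRpS24 (-0.62 ± 0.14). All these libraries were apart. The egg markers summed to 1784 and 1760 CPM in RNAi embryos and 2493 and 2236 CPM in control embryos, and the 6 late muscle markers were all called higher (median 2.65). The number called was 0 without either RNAi library, 27 or 33 without control replicate 1 or 2, and 0 with 1 fit per window. At 0-1.5 h, before twi is normally expressed from the embryo's genome, 10 members were called higher and 0 lower (4.47% and 6.61% of all genes), and the summed level was 4393 and 5265 CPM in RNAi embryos, against 3673 and 3445 CPM in control embryos.

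With RNAi of CG10209, Bdp1 and Pdp1 most called members were lower. With 1 fit per window, which shares the spread of all groups at that window, the number called fell to 1 for CG10209 at 16-18 h, 7 for CG10209 at 12-14 h, 0 for Bdp1 and 0 for Pdp1. CG10209 RNAi gave 3 higher and 32 lower at 16-18 h, so that 44.4% of members were lower beside 19.9% of all genes (18.7% higher), and 2 higher and 20 lower at 12-14 h (all genes 20.5% and 18.2%). CG10209 had 4.69 and 6.02 CPM in RNAi embryos at 16-18 h, against 13.8 and 11.8 CPM in control embryos. Summed over the family, CPM was 2301 and 2366 in RNAi embryos and 3030 and 2745 in control embryos at 16-18 h. The largest decreases were mRpS14 (with 32.0% of its exonic bases antisense to Naa15-16; 18.0 and 19.1 CPM in RNAi embryos, against 35.9 and 29.4 CPM in control embryos, log2 fold change -0.82 ± 0.13), mRpS6 (-0.77 ± 0.14), mRpL36 (-0.64 ± 0.16) and mRpL20 (-0.62 ± 0.12), and mRpS14 (-0.57 ± 0.10), mRpL34 (-0.52 ± 0.09), mRpL36 (-0.50 ± 0.12) and mRpL44 (-0.39 ± 0.07) at 12-14 h. Cytoplasmic ribosomal protein genes were lower 65 times out of 86 at 16-18 h (60 at 12-14 h) and nuclear oxidative phosphorylation genes 45 times out of 60 (41 at 12-14 h). The number called at 16-18 h was 4 or 16 without control replicate 1 or 2, and at 12-14 h it was 14 or 12 without RNAi replicate 1 or 2 and 37 without control replicate 2.

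Unlike most members, mRpS5 was higher with CG10209 RNAi at both windows, at 110 and 80.8 CPM in RNAi embryos, against 48.1 and 46.3 CPM in control embryos at 16-18 h (1.02 ± 0.16), and at 91.9 and 97.1 CPM in RNAi embryos, against 47.4 and 48.7 CPM in control embryos at 12-14 h (0.97 ± 0.07). mRpL33 was higher too, at 21.8 and 19.6 CPM in RNAi embryos, against 14.2 and 12.3 CPM in control embryos at 16-18 h (0.64 ± 0.13) and 0.62 ± 0.11 at 12-14 h, and mRpL49 at 16-18 h (0.28 ± 0.10, adjusted p = 0.09). The control level of mRpS5 at 16-18 h in this set, 48.6 CPM unscaled, is among the lowest of the 21 sets.

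With RNAi of Bdp1, a subunit of the RNA polymerase III initiation factor TFIIIB, 1 member was higher and 29 lower at 16-18 h, 40.3% lower beside 15.7% of all genes (25.6% higher), although Bdp1 was not called (33.8 and 30.0 CPM in RNAi embryos, against 43.4 and 42.4 CPM in control embryos). mRpS30 was the member called higher, at 197 and 190 CPM in RNAi embryos, against 114 and 113 CPM in control embryos (0.77 ± 0.07). Over the control libraries of all sets at 16-18 h, its unscaled level ran from 83.7 to 218 CPM. mRpL20 (-0.51 ± 0.11), mRpS33 (-0.51 ± 0.12), mRpS34 (-0.48 ± 0.11) and mRpL21 (-0.48 ± 0.10) had the largest decreases. Large subunit genes were lower 23 times out of 46 and small subunit genes 6 times out of 26. The ratio of the subunits was 1.29 in both RNAi libraries, against 1.53 and 1.58 in control embryos. Over the control libraries of all sets at 16-18 h it ran from 1.11 to 1.90, a range that holds the RNAi value. Of 61 oxidative phosphorylation genes, 42 were lower. The egg markers summed to 2480 and 2483 CPM in RNAi embryos and 852 and 922 CPM in control embryos. With RNAi of Pdp1, a bZIP factor gene, 1 member was higher and 14 lower at 16-18 h (13.2% and 8.03% of all genes), with mRpS6 (-0.38 ± 0.10), mRpS34 (-0.36 ± 0.09), mRpL47 (-0.36 ± 0.08) and mRpS17 (-0.31 ± 0.09) the most and mRpS30 (0.18 ± 0.06) the one member higher; 28 of 60 oxidative phosphorylation genes were lower. Library totals gave 1 higher and 62 lower for Bdp1. The number called with Bdp1 RNAi was 14 without control replicate 1, and 20 without RNAi replicate 2. With Pdp1 RNAi it was 39 or 10 without RNAi replicate 1 or 2, and 2 or 1 without control replicate 1 or 2.

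Over all comparisons, each of the 72 genes was called at least once and 40, or 55.6%, were called in both directions. Of the 7021 genes tested in every comparison 98.8% were called at least once and 71.6% in both directions, so the first count says nothing particular about these genes. mRpS5 was called most often, 17 times (12 higher, 5 lower) over 13 control sets; it was also the member that differed most between control sets at 0-1.5 h. mRpS30 was called 13 times over 11 sets (12 higher, 1 lower), and mRpL39 and mRpL4 10 times over 9 sets each (8 higher, 2 lower). mRpL33 (6 higher, 4 lower), mRpL45 (5 and 5), mRpL50 (6 and 4), mRpL21 (0 and 8), mRpL38 (1 and 7) and mRpL43 (1 and 7) followed. In dmrt99B RNAi at 16-18 h the member median was 1.86 with 0 called by edgeR (0 at an unadjusted p under 0.05, 22 called by DESeq2). Over all genes of that comparison edgeR called 0 (188 at an unadjusted p under 0.05) and DESeq2 1009. The replicate that stood apart there had 934 CPM of mRpS5 and the other 33.5 CPM, against 25.1 and 26.0 CPM in control embryos.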

How the data were processed

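Whole-embryo libraries (TruSeq Stranded mRNA) were aligned by the authors with STAR 2.7.3a to dm6 and counted with HTSeq 0.12.4, leaving out reads over several genes; the deposited values are whole-number counts per gene symbol, not normalized, and whether strand was used in counting is not given in the sources used here. The 5 summary lines of each table were left out; reads on no gene were 3.52 to 20.7% (median 6.11%). The data were divided into RNAi and control groups by the labels. The genes described and all marker and gene lists were chosen with earlier results of these data known. Each RNAi group was compared with its control set at the same window, and control windows with each other with the set as a term, by edgeR 4.0.16 (R 4.3.3) quasi-likelihood tests, TMM scaling and filterByExpr with a minimum count of 10, fitted over the whole table, with Benjamini-Hochberg adjustment over all genes tested. Errors beside fold changes are standard errors. Named genes were the 5 at each end of the mean level, those with the largest changes per window (8 in each direction at 16-18 h, 3 elsewhere), the 4 largest per direction in the 10 comparisons with most calls, the 10 called over the most control sets, and ERR and foxo whatever they showed. Pairwise r between knockdown patterns, r against the 13 window contrasts, the CPM floors on the all-gene median, and the scalings to library totals or to the family's own counts were added after values had been seen. Scripts were tested on simulated data. Alternatives were RLE scaling and DESeq2 1.42.0, no filter, stricter thresholds, one fit per window, a replicate block, and leaving out each replicate. The study's methods call the 2 replicates of a group biological. Gene lengths and coordinates came from the dm6 annotation, and RPKM were computed from the deposited counts over exon length. No sequence of the genes themselves was used here.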

Additional observations from a re-analysis of the deposited data

Results flagged for a closer look

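In 184 groups of 4 to 10 control libraries, 1 gene in a window each, 5 values lay far from the rest; chance alone gives about 1 in 20 such groups. mRpL11 was lowest in a 12-14 h control library of the CG9876 and Hr51 set, replicate 2, at 16.6 CPM (next 19.7, n = 10). mRpL43 was highest in the 2-4 h MTD-Gal4 control of twi, replicate 2, at 16.2 CPM (next 12.1, n = 4). mRpS17 was highest in the 6-8 h control of CG33557 and dmrt99B, replicate 2, at 44.99 CPM (next 37.1, n = 8), and in the 14-16 h control of CG2120 and Pdp1, replicate 1, at 36.6 CPM (next 29.9, n = 6). mRpS30 was highest in the 12-14 h control of onecut, scro and ss, replicate 1, at 215 CPM (next 171, n = 10).

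In caup RNAi the effect on 37 of 72 members was lower at 10-12 h than at 16-18 h by the test of the difference between windows, beside 53.8% of all genes, and on 0 members with RLE size factors. That share is near that of all genes, so the count alone is no result about these genes.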

How the results depend on the processing

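Of 297 alternative counts of called members, 160 lay within 1.5 times the reported count and the rest further apart. For 71 values named in knockdowns, 706 of 820 alternative values kept direction and call, 112 kept the direction only and 2 reversed: with library totals, mRpL50 and mRpL4 in caup RNAi at 16-18 h came to -0.31 and -0.28. For 52 values named in control windows, 437 of 520 kept both, and mRpS25 at 8-10 h (0.43) came to 0.62 without replicate 1 and reversed to -0.11 without replicate 2. The cause was not tested for any of these changes.

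Without 1 replicate, the calls over all knockdown comparisons ran from 159 to 410 higher and from 269 to 416 lower (150 and 237 with all libraries). By comparison they ran from 33 to 68 for caup at 10-12 h, 20 to 39 for CG33557, 9 to 38 for Kah, 4 to 35 for CG10209 at 16-18 h, 14 to 29 for Bdp1, 0 to 33 for twi, 1 to 51 for Hr51, 12 to 37 for CG10209 at 12-14 h, 0 to 57 for caup at 16-18 h, 1 to 39 for Pdp1, 0 to 1 for ERR and 0 to 2 for foxo, a lone library being assumed to vary like the other group. In the control windows they ran from 0 to 32 higher and 7 to 28 lower at 2-4 h, 1 to 3 and 18 to 42 at 6-8 h, 0 to 2 and 17 to 41 at 6-8 h against 2-4 h, and 3 to 7 and 14 to 19 at 16-18 h.

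Over all knockdown comparisons, calls higher numbered 260 with DESeq2, 286 with 1 fit per window and 93 at an adjusted p of 0.05, and calls lower 605 with library totals, 127 at an adjusted p of 0.05 and 92 with a log2 fold change of at least 0.5. With RLE size factors Kah had 24 and with DESeq2 Kah had 24, CG10209 at 16-18 h 23, Hr51 17 and Pdp1 6. One fit per window gave 1 for CG10209 at 16-18 h, 0 for Bdp1, 0 for twi, 7 for CG10209 at 12-14 h, 37 for caup at 16-18 h and 0 for Pdp1. Library totals gave 63 for Bdp1, 16 for twi, 41 for Hr51, 47 for CG10209 at 12-14 h, 65 for caup at 16-18 h and 9 for Pdp1. Scaled to the family, CG10209 at 16-18 h had 10, Bdp1 15, Hr51 44, caup at 16-18 h 33 and Pdp1 1. An adjusted p of 0.05 left 25 for Kah, 19 for CG10209 at 16-18 h, 14 for twi, 0 for Hr51, 8 for caup at 16-18 h and 5 for Pdp1. A log2 fold change of at least 0.5 left 6 for Kah, 11 and 5 for CG10209 at 16-18 h and 12-14 h, 3 for Bdp1, 14 for twi, 7 for Hr51 and 0 for Pdp1.

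Replicate numbers did not pair the libraries: over 134 comparisons with 2 numbered pairs the correlation of their deviations ran from -0.85 to 0.87 (median 0.01). A replicate block gave 21 for CG10209 at 16-18 h, 15 for twi, 10 for Hr51 and 8 for caup at 16-18 h, and 21 for the difference between windows. The crossed replicate block, added after seeing the data, gave 50 for Hr51.

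In control windows, higher and lower calls at 2-4 h numbered 6 and 15 with no filter, 1 and 16 without the da-Gal4 and MTD-Gal4 sets, 2 and 23 with library totals, 7 and 15 scaled to the family, 34 and 15 with no threshold on the fold and 1 and 2 with a log2 fold change of at least 1. At 6-8 h these were 1 and 30, 1 and 41, 1 and 29, 8 and 10, 11 and 39, and 0 and 3. For 6-8 h against 2-4 h, calls higher were 4 with RLE and with DESeq2, 1 without the 2 sets, 5 with library totals, 8 scaled to the family, 4 with no threshold and 0 at the threshold of 1; calls lower were 14 with library totals, 8 scaled to the family and 3 at the threshold of 1. At 16-18 h calls higher and lower were 41 and 0 with RLE and with DESeq2, 2 and 21 without the 2 sets, 2 and 26 with library totals, 38 and 28 with no threshold and 1 and 0 at the threshold of 1; 5 were higher with no filter. For the difference between windows, RLE gave 1 higher and 0 lower, no filter 1 higher and an adjusted p of 0.05 17 lower.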
